A study of Homo sapiens with 6 samples.

Results

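The genes described here make cholesterol and fatty acids: 37 genes covering the control of sterol regulatory element-binding proteins (SREBPs), the mevalonate pathway, the steps from squalene to cholesterol, sterol transport, fatty acid synthesis, and chain elongation and desaturation. They were listed by gene symbol as genes of these pathways, and all 37 were found among the 19669 genes of the deposited table that were used. Levels were measured in 786-O cells, an established line of clear cell renal cell carcinoma without functional VHL, by RNA-seq of mRNA and by Ribo-seq, which sequences short pieces of mRNA shielded by ribosomes during nuclease digestion (footprints). Each assay has 3 libraries, labelled EV (empty vector), WT and MT, and 1 library stands for each label and assay. All 3 Ribo-seq libraries came from cells given cycloheximide at 100 µg/ml, which stalls ribosomes, a treatment the labels give for Ribo-seq. PHYHD1 is a member of the iron- and 2-oxoglutarate-dependent dioxygenase family. The labels disagree on what the libraries are: the series title reads WT as PHYHD1-WT and MT as a PHYHD1 without the segment from 107 to 130, and in the design text PHYHD1 is overexpressed in MT, with WT as cells left untreated. PHYHD1 mRNA was nearly absent from EV (0.092 FPKM) and high in both WT (118 FPKM) and MT (109.5 FPKM), with footprints of 0, 222 and 905 TPM in the same order, so the library labelled WT goes against the description as untreated. Cells of each condition came from 3 dishes according to the design. Pooling of dishes, which promoter drives the transgene and whether a line is 1 clone were not given in the sources used here.

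Sterol synthesis and fatty acid synthesis are governed by SREBPs, transcription factors that are held in the endoplasmic reticulum with the escort protein SCAP when sterols are plentiful, retained there by INSIG proteins, and cut free in the Golgi when sterols run low. SREBF2 encodes the form best known for the cholesterol genes and SREBF1 the form best known for the fatty acid genes. Their released parts bind sterol regulatory elements in target promoters, usually with the factor NF-Y bound at a nearby CCAAT box. Clear cell renal carcinoma cells are known for storing cholesterol esters and triglycerides in lipid droplets, which gives the tumour its clear cytoplasm.

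Promoter sequence shows what many of these genes share apart from their levels. RefSeq windows of 300 bases, 250 before and 50 after each transcription start on GRCh38.p14, matched 33 of the 37 genes by symbol, with 44 windows because some genes have several starts. The other 4 are FASN, FDFT1, SQLE and ACAT2. The NF-Y box CCAAT, searched on both strands, was found in 30 of 44 windows (68.2%, 26 of 33 genes), and in 34.6% of all 35116 windows of that length. The sterol regulatory element core TCACNCCAC was in 1 of the 44 windows, that of SREBF2, and in 1.13% of all windows. A shorter form without its first letter, CACNCCAC, which was chosen after that result was seen and is contained in the longer one, was in 7 of 44 windows (15.9%) of ACACA, IDI1, INSIG1, SC5D, SCD and SREBF2, and in 5.87% of all. The E-box CACGTG was in 6 of 44 windows (13.6%, 5 of 33 genes) and in 7.26% of all. The following stretches before the start of 6 members are shown because SREBF2 holds the full core beside an NF-Y box, INSIG1 and SCD hold the shorter core, MSMO1 and FDPS hold several NF-Y boxes, and SCAP holds an E-box alone. Capitals mark the matches, each stretch runs 5′ to 3′ on the strand of its gene, and the positions are chr22:41832957-41833018 (+ strand) for SREBF2, chr7:155297655-155297843 (+ strand) for INSIG1, chr10:100346989-100347141 (+ strand) for SCD, chr4:165327469-165327654 (+ strand) for MSMO1, chr1:155308675-155308834 (+ strand) for FDPS and chr3:47475979-47476014 (- strand) for SCAP.
SREBF2: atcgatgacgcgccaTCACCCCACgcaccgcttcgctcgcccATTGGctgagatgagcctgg
INSIG1: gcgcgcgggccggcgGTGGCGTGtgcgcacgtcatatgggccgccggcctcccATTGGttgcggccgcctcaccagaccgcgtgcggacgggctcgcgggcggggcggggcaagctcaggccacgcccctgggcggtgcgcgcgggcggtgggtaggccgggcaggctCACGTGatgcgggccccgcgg
SCD: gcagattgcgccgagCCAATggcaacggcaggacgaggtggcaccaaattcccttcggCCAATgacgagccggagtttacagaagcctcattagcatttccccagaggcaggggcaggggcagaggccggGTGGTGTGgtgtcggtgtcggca
MSMO1: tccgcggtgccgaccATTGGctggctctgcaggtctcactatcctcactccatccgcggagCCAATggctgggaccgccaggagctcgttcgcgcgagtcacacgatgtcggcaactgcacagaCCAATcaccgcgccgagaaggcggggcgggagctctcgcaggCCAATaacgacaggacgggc
FDPS: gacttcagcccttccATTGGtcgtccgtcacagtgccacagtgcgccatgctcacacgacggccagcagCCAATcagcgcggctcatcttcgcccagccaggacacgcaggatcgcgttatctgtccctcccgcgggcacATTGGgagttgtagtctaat
SCAP: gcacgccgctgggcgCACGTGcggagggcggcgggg

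NF-Y boxes were most frequent between 50 and 150 bases before the start. In the bin from 50 to 100 bases 40.9% of the member windows had a match, against 12.9% of all windows, and in the bin from 100 to 150 bases 34.1% against 8.63%. MVK and NSDHL held the most boxes, 5 each in 1 window, and MSMO1 held 4. A box did not go with a measurable level in every case, since NPC1L1 and THRSP hold 1 and 2 boxes and stayed below 1 unit in each library of both assays. Windows of 1 gene can overlap, so the 44 windows are not independent, and a match is a string of letters, not a measured binding site.

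**Figure D1:**
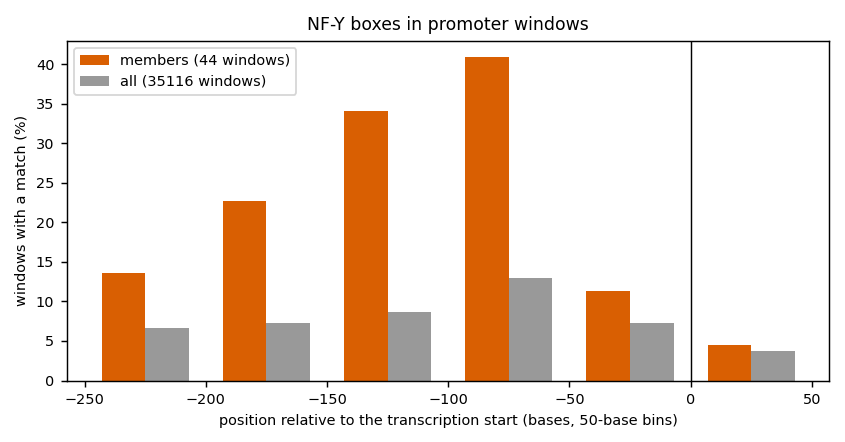
Share of promoter windows (%, vertical axis) with a CCAAT match in each bin of 50 bases relative to the transcription start (bases, horizontal axis), for 44 member windows (orange) and all 35116 windows (grey). The member bars are tallest from 50 to 150 bases before the start, at 40.9% and 34.1%.

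In the 3 RNA-seq libraries 32 of the 37 genes reached 1 FPKM (fragments relative to transcript length and to library depth) in all 3, and in Ribo-seq 31 reached 1 TPM (scaled to length and to a total of 1000000 per library) in all 3. In the EV library the most abundant mRNA was that of the stearoyl-CoA desaturase SCD at 147 FPKM, followed by FADS2 at 138 FPKM, ACLY at 136 FPKM, ELOVL5 at 114 FPKM and ELOVL1 at 80.5 FPKM. Footprints were highest for ELOVL5 at 214 TPM, FDFT1 at 196 TPM and FADS2 at 190.1 TPM. At the low end were NPC1L1, the intestinal cholesterol uptake protein (0.040 to 0.172 FPKM), MLXIPL, the carbohydrate-responsive factor ChREBP (0 to 0.044 FPKM), and THRSP, a thyroid hormone-responsive lipogenic gene (0 to 0.055 FPKM), all of which are best known from liver, gut or fat. Together the 37 genes took 0.296% of the EV sum in RNA-seq, 0.269% of the WT sum, 0.285% of the MT sum, and 0.220%, 0.221% and 0.216% of the Ribo-seq sums. The summed mRNA thus took the smallest share in WT, with nearly level footprint shares. A sum is weighted to the most abundant genes and does not describe each gene. Elongation and desaturation genes took 0.119% of the EV sum and 0.0995% of the WT sum in RNA-seq. Fatty acid synthesis genes went the other way, with 0.0454% and 0.0492%.

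**Figure D2:**
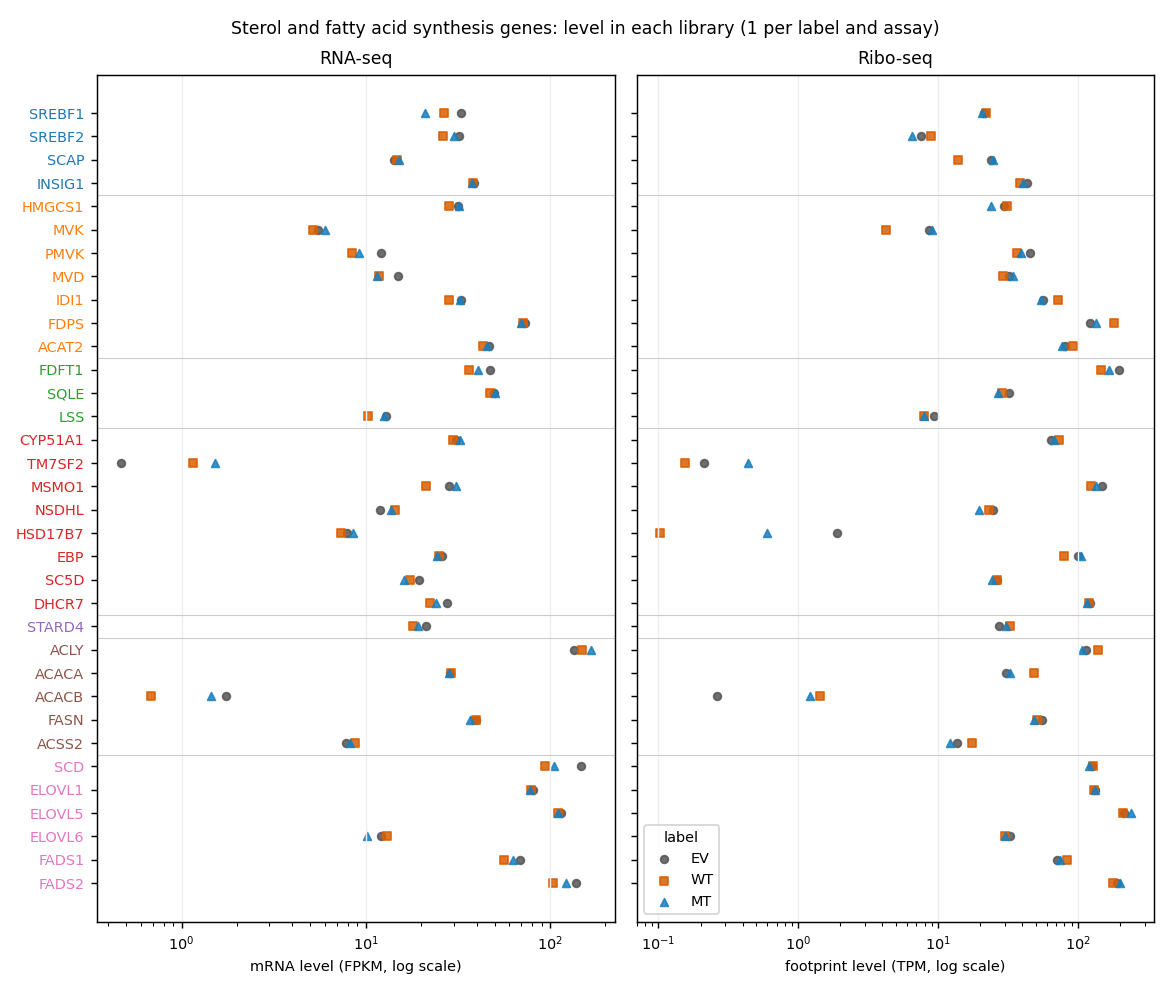
Level of each of 34 genes that reached 1 unit in some library, as mRNA (FPKM, left, log axis) and footprints (TPM, right, log axis), with 1 point per library (circle EV, square WT, triangle MT) and gene names coloured and separated by role. SCD mRNA lies at 147 in EV, right of WT and MT, and the SCD footprint points overlap.

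Every comparison rests on 1 library against 1 library, so no difference has a replicate check or a p-value, and differences are between libraries. They are given as the log2 difference of value + 1, and rules of size stand in for a test. These are 2-fold, and a smaller step at which the larger exceeds the smaller by 25%, both taken on value + 1. At low values a gene can therefore differ by more than a step in its printed values without being counted. A gene was measured in a comparison when either library reached 1 unit. Both comparisons with EV use the same EV library, so a deviation of that library appears in both. In bulk RNA, fewer cells with a transcript and less of it per cell cannot be told apart. All 8 kidney tumour markers listed for checking the line were present, from PAX2 at 7.65 to 8.54 FPKM to VIM at 1746 to 1911 FPKM. CDH6, a cadherin of kidney tubules, had 61.5 FPKM in EV, 40.03 in WT and 75.6 in MT (log2 difference -0.61 in WT and 0.29 in MT against EV), and EPAS1, which encodes HIF-2 alpha, had 16.6, 16.5 and 12.1 FPKM in that order (-0.43 in MT against EV). Their part in the results was not tested. Of the markers of other cells 5 of the 6 (PTPRC, CD3E, PECAM1, ALB and COL1A2) were at 0 to 0.071 FPKM. COL1A1, the other one, was highest in WT (1.54 FPKM, with 0.449 in EV and 0.536 in MT) and had footprints of 1.11, 0.755 and 1.35 TPM in EV, WT and MT, lowest in WT, and its part in any result was not tested.

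Most of these mRNAs stood lower in the WT library than in EV: 26 of 34 measured genes were below 0 and 8 above, with a median of -0.10, while 48.9% of all 11032 genes lay above 0 with a median of -0.01. None passed 2-fold (0.499% of all genes did). At the 25% step 7 were lower (8.35% of all genes) and 1 was higher (5.82% of all). The 7 were SCD, ACACB, PMVK, FADS2, MSMO1, FDFT1 and MVD, and the 1 was TM7SF2. Among genes at 10 FPKM or more, 95% of all differences lay between -0.40 and 0.38, and SCD (-0.64) and PMVK (-0.46) were the 2 of 29 members below that range.

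In the MT library 23 of 34 genes were below EV and 11 above, with a median of -0.04. Of all 11016 genes 48.7% lay above 0, with a median of -0.01. No member passed 2-fold (0.290% of all), although TM7SF2, at low values, did so with a pseudocount of 0.1 (1.51). At the 25% step 4 were lower, SREBF1, SCD, PMVK and MVD (6.79% of all genes), and TM7SF2 was higher (4.81% of all). SREBF1 (-0.63) and SCD (-0.48) lay below the range from -0.36 to 0.33 that held 95% of genes at 10 FPKM or more. Set directly against MT, the WT library was lower in 22 of 34 genes (median -0.10), while 51.0% of all 11013 genes lay above 0 (median 0.00). No member passed 2-fold there (0.508% of all). SREBF1 and ELOVL6 were higher in WT past the 25% step (6.91% of all) and MSMO1 and ACACB lower (7.32% of all). MSMO1, at -0.53, was the 1 member of 28 outside the range from -0.38 to 0.39 that held 95% of genes at 10 FPKM or more. Taking all 3 libraries, the highest mRNA value was in EV for 20 of 34 genes and the lowest in WT for 19 of 34, where 33.8% and 35.6% of all genes had these positions.

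**Figure D3:**
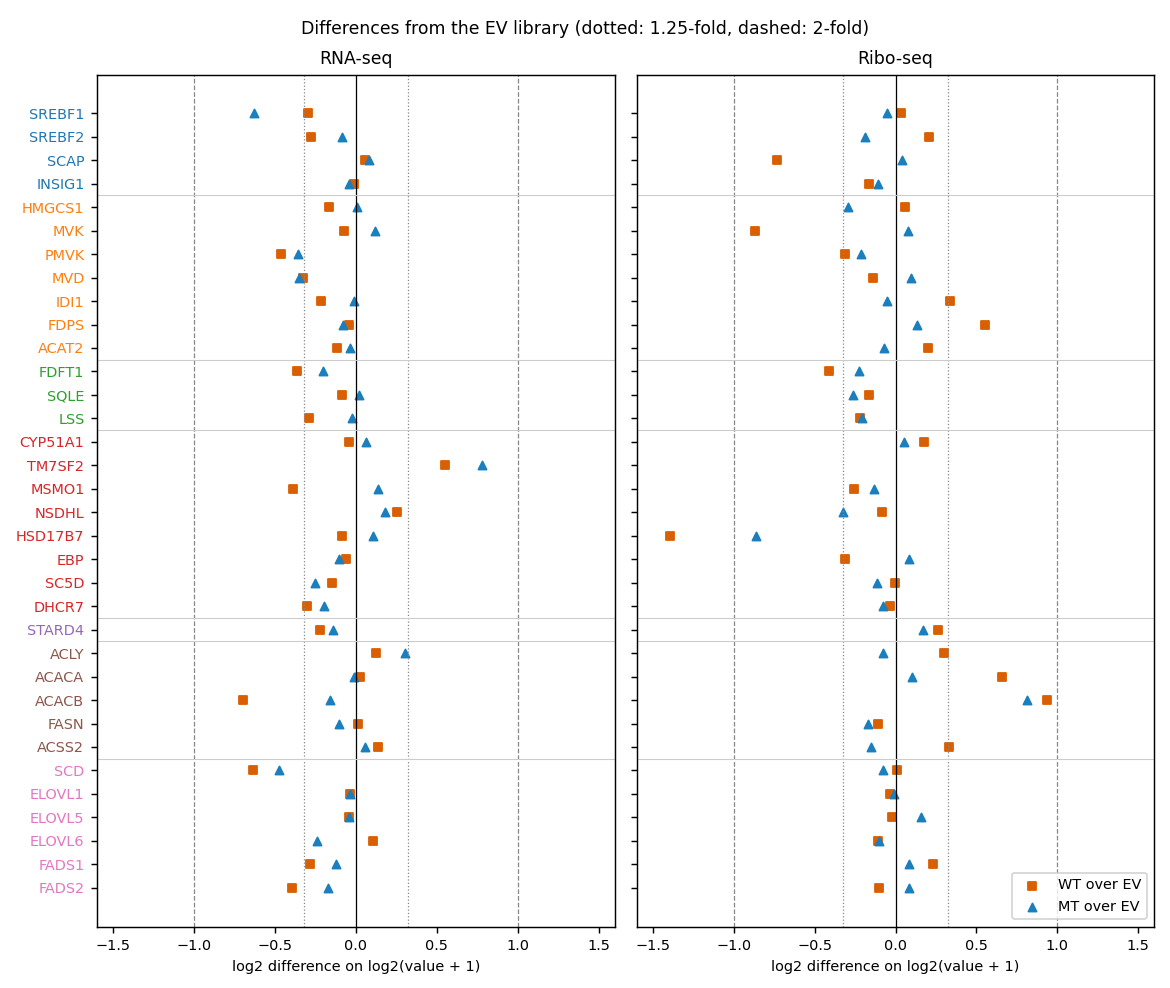
Log2 difference on the value + 1 scale (horizontal axis) of WT (squares) and MT (triangles) from the EV library for each of 34 genes in RNA-seq (left) and 33 in Ribo-seq (right), with dotted lines at the 25% step and dashed lines at 2-fold. On the left most squares lie below 0, with SCD at -0.64, and on the right the squares of ACACA and FDPS lie above 0 and those of SCAP and MVK below 0, apart from their triangles.

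In footprints 14 of the 33 genes measured were higher in WT than in EV and 19 lower, with a median of -0.03. Of all 10700 genes 53.4% lay above 0, with a median of 0.03. HSD17B7 alone passed 2-fold (3.36% of all genes did). At the 25% step 5 genes were higher, ACACA, FDPS, IDI1, ACSS2 and ACACB (18.1% of all), and 4 lower, HSD17B7, MVK, SCAP and FDFT1 (15.7% of all). SCAP, at -0.73, was the 1 member of 28 at 10 TPM or more outside the range from -0.65 to 0.72 that held 95% of such genes. In MT against EV 21 of 33 were below 0 (median -0.08), while 52.1% of all 10737 genes lay above 0 (median 0.01). No member passed 2-fold (2.83% of all), ACACB was higher past the 25% step (15.5% of all) and NSDHL and HSD17B7 lower (12.6% of all). With a pseudocount of 0.1 the low footprints of ACACB (1.86) and HSD17B7 (-1.53) passed 2-fold in MT against EV. Against MT, WT footprints were higher in 19 of 32 genes (median 0.08) and in 51.6% of all 10752 genes (median 0.01). None of the 32 passed 2-fold (3.19% of all). There 7 were higher past the 25% step, ACACA, ACSS2, FDPS, SREBF2, IDI1, ACLY and HMGCS1 (16.2% of all), and MVK, SCAP and EBP were lower (16.4% of all). Of the members, 14 had their highest footprint value in WT, 13 in EV and 6 in MT, where 38.3%, 29.9% and 31.7% of all genes had their highest value.

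Values below are given in the order EV, WT and MT. Among the regulators, SREBF1 mRNA stood at 33.0, 26.7 and 20.9 FPKM, lowest in MT. Its footprints were nearly level, at 21.4, 21.97 and 20.7 TPM. SREBF1 overlaps RAI1 in RefSeq, so its reads could have been shared. SREBF2, whose promoter holds the full sterol element, had 32.2, 26.4 and 30.25 FPKM of mRNA and few footprints, 7.58, 8.91 and 6.52 TPM. SCAP, the escort that carries SREBPs to the Golgi, had level mRNA at 14.2, 14.8 and 15.1 FPKM. The SCAP footprints were 23.8, 13.9 and 24.5 TPM, so that WT stood apart from EV and MT, which were close together. INSIG1, which retains SCAP in the endoplasmic reticulum and is itself a sterol-responsive gene, ranged only from 37.5 to 38.7 FPKM and from 38.7 to 43.5 TPM.

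In the mevalonate pathway, which builds isoprenoid units from acetyl-CoA, all 7 mRNAs were lower in WT than in EV (median -0.17), and 5 of 7 were lower in MT (median -0.04). Of all genes, 48.9% lay above EV in WT and 48.7% in MT. PMVK, the phosphomevalonate kinase, stood at 12.0, 8.47 and 9.17 FPKM, and MVD, the decarboxylase of the next step, at 14.99, 11.7 and 11.5 FPKM. Both were highest in EV with WT and MT close to each other. PMVK footprints kept that order at 45.7, 36.7 and 39.3 TPM, and MVD footprints did not, at 32.1, 29.0 and 34.3 TPM. FDPS, the farnesyl diphosphate synthase, had mRNA within 69.3 to 73.4 FPKM and footprints of 123, 180.1 and 134 TPM, highest in WT. The isomerase IDI1 had 32.9, 28.1 and 32.6 FPKM and 56.6, 71.7 and 54.5 TPM, so WT was the lowest in mRNA and the highest in footprints. ACAT2, the acetoacetyl-CoA thiolase at the entry of the pathway, showed the same orders at smaller size (43.0 to 46.7 FPKM and 76.9 to 92.7 TPM). HMGCS1, the synthase that follows it, had 31.8, 28.2 and 32.0 FPKM and 29.6, 30.9 and 24.0 TPM. Mevalonate kinase, MVK, had its lowest footprint value in WT, with mRNA of 5.48, 5.15 and 6.04 FPKM and footprints of 8.55, 4.22 and 9.08 TPM. The WT footprint value of MVK was 0.493 times EV and 0.465 times MT. On value + 1 these log2 differences were -0.87 and -0.95, so MVK was not counted past 2-fold. FDPS and IDI1 have 10 and 3 pseudogenes in RefSeq. IDI1 also overlaps WDR37, ACAT2 overlaps SOD2 and TCP1, and MVK overlaps MMAB. Reads of these 4 genes could have been shared, so their values are uncertain.

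The 3 enzymes from farnesyl diphosphate to lanosterol were lower in WT than in EV in both assays. In that comparison 48.9% of all genes lay above EV in mRNA and 53.4% in footprints. The share of all genes lower in both was not computed. FDFT1, the squalene synthase, had 47.0, 36.3 and 40.7 FPKM of mRNA and 196, 147 and 167 TPM of footprints. EV was the highest and WT the lowest in both. LSS, which closes squalene epoxide to lanosterol, had 12.8, 10.3 and 12.6 FPKM and 9.36, 7.88 and 7.96 TPM. SQLE, the epoxidase between them, differed least in mRNA (46.9 to 50.6 FPKM), and its footprints were 32.3, 28.7 and 26.8 TPM. In MT the footprints of all 3 were below EV as well, with differences from -0.26 to -0.21, where 52.1% of all genes lay above EV. For these 3 genes the mRNA and footprint differences in WT had the same sign, and none but FDFT1 passed the 25% step in either assay.

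Between lanosterol and cholesterol, 6 of 8 mRNAs were lower in WT than in EV (median -0.07) and 3 of 8 in MT (median 0.08). The shares of all genes above EV were 48.9% in WT and 48.7% in MT. MSMO1, the C4-methyl sterol oxidase with 4 NF-Y boxes in its promoter, stood at 28.1, 21.2 and 31.0 FPKM, so that WT was low and MT above EV. Its footprints were 148, 124 and 135 TPM. DHCR7, the last reductase of the pathway, had 27.7, 22.3 and 24.0 FPKM of mRNA and level footprints at 122, 119 and 115 TPM. NSDHL, the decarboxylating sterol dehydrogenase, was the 1 gene of these 8 above 10 FPKM with mRNA above EV in both WT and MT (12.0, 14.5 and 13.7 FPKM), whereas its footprints were 24.7, 23.3 and 19.5 TPM. EBP, the sterol isomerase, had mRNA within 24.2 to 26.1 FPKM and footprints of 99.6, 80.0 and 106 TPM, lowest in WT. The lanosterol demethylase CYP51A1 (29.9 to 32.3 FPKM, 64.5 to 73.0 TPM) and the desaturase SC5D (16.1 to 19.4 FPKM, 24.2 to 26.3 TPM) differed by less than the 25% step in every comparison of either assay. TM7SF2, a sterol C14-reductase, was near the limit of detection, with 0.467, 1.15 and 1.52 FPKM and at most 0.438 TPM. HSD17B7, the ketosteroid reductase of this branch, had 7.865, 7.36 and 8.53 FPKM, yet footprints of 1.895, 0.103 and 0.593 TPM. Its WT footprint value is no larger than 0.148 TPM, the median of genes seen above 0 in that library alone. The size of any fold from that value is thus uncertain, also where HSD17B7 is counted past 2-fold in footprints or translational efficiency. With 2 pseudogenes in RefSeq HSD17B7 is uncertain as well, as is CYP51A1 with 3.

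STARD4, which carries cholesterol through the cytosol, had 21.2, 18.03 and 19.2 FPKM of mRNA, highest in EV. The footprints of STARD4 were 27.1, 32.7 and 30.6 TPM, lowest in EV. It was 1 of 11 genes of 33 (33.3%), with IDI1, FADS1 and SREBF2 among them, for which WT was below EV in mRNA and above it in footprints, as were 27.6% of all genes measured in both assays.

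Among the fatty acid synthesis genes 4 of 5 mRNAs were above EV in WT (median 0.02) and 2 of 5 in MT (median -0.01). Above EV lay 48.9% of all genes in WT and 48.7% in MT. The mRNAs of ACACA and FASN differed from EV by only 0.02 and 0.01 in WT. ACLY, which makes cytosolic acetyl-CoA from citrate, had 136, 148 and 167 FPKM, lowest in EV. Its footprints were 113, 139.9 and 107 TPM, so that MT was highest in mRNA and lowest in footprints. ACACA, the acetyl-CoA carboxylase of the cytosol, had mRNA of 28.6, 29.0 and 28.3 FPKM. ACACA footprints were 30.6, 48.9 and 32.9 TPM, with WT well above EV and MT, which lay close together. ACACA overlaps C17orf78 in RefSeq, so its reads could have been shared. ACSS2, which makes acetyl-CoA from acetate, had 7.84, 8.71 and 8.20 FPKM and 13.7, 17.5 and 12.2 TPM. FASN, the fatty acid synthase itself, ranged from 36.6 to 39.8 FPKM and from 48.9 to 55.3 TPM. ACACB, the carboxylase of the mitochondrial surface, was low in both assays (0.683 to 1.73 FPKM, 0.262 to 1.42 TPM), so its log2 differences rest on values near 1 unit.

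Of the desaturases and elongases, 5 of 6 mRNAs were below EV in WT and 6 of 6 in MT, where 48.9% and 48.7% of all genes lay above EV. Against EV, the mRNA and footprint differences lay furthest apart for SCD among these 6, in WT (0.65) and in MT (0.40), whereas in WT against MT they did so for ELOVL6 (-0.35) and FADS1 (0.31). SCD is the desaturase that makes monounsaturated fatty acids. SCD mRNA stood at 147, 94.2 and 106 FPKM, so that WT was 0.640 times and MT 0.717 times EV. SCD footprints were 127, 127 and 120.1 TPM, and no library stood apart. SCD has 1 pseudogene in RefSeq. The SCD difference in mRNA was among the lowest 1.13% of genes in WT and the lowest 2.72% in MT. FADS2 and FADS1, the delta-6 and delta-5 desaturases, had the same order of mRNA, with FADS2 at 138, 104 and 122 FPKM and FADS1 at 68.8, 56.4 and 63.0 FPKM. Footprints of FADS2 were 190.1, 177 and 201 TPM and those of FADS1 70.6, 83.2 and 74.9 TPM, which did not keep that order. The 2 genes overlap in RefSeq, so reads could be shared between them. ELOVL5 (111 to 114 FPKM) and ELOVL1 (78.3 to 80.5 FPKM), elongases of polyunsaturated and very long chains, had nearly level mRNA in the 3 libraries. ELOVL6, the elongase that acts on palmitate, had 12.1, 13.1 and 10.1 FPKM and footprints within 30.2 to 32.6 TPM.

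**Figure D4:**
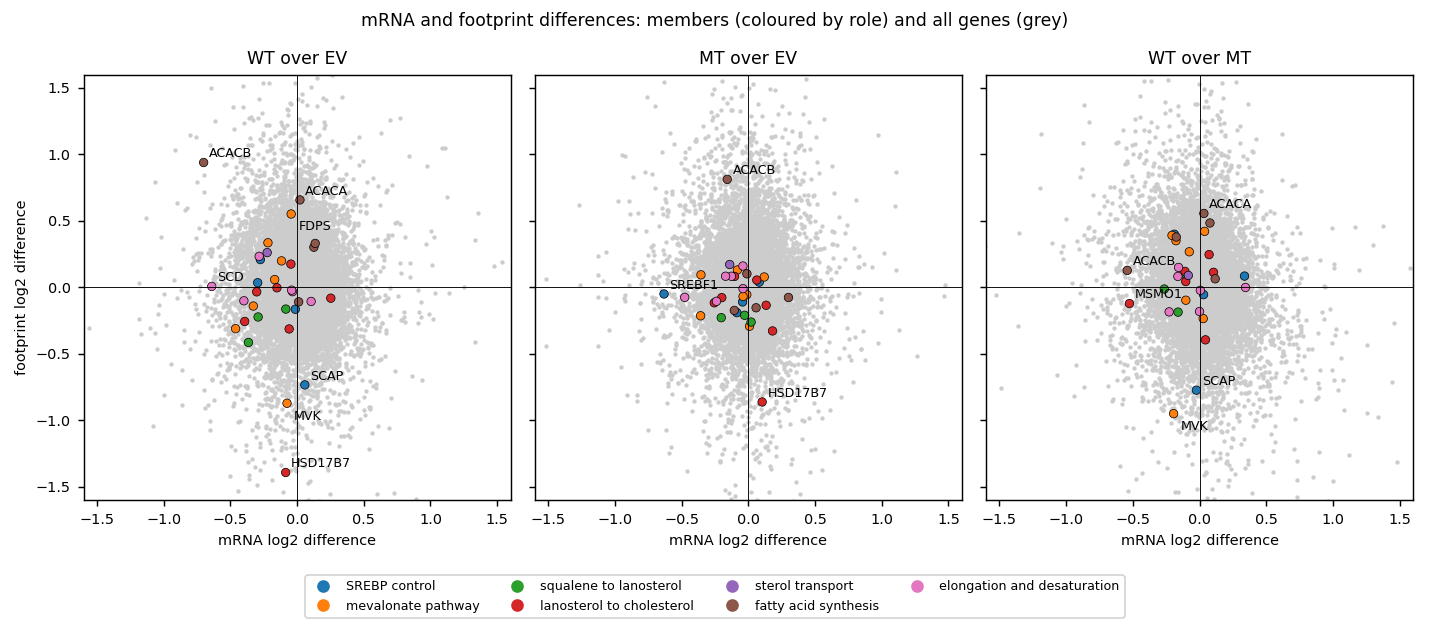
Log2 difference in footprints (vertical axis) against that in mRNA (horizontal axis) for members, coloured by role, and for all genes measured in both assays (grey), with axes ending at 1.6 so that genes beyond are not drawn. In WT over EV, SCD lies left of 0 at level footprints, ACACA and FDPS lie above 0 at level mRNA, and SCAP and MVK lie below 0 at level mRNA.

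Signs of the mRNA and footprint differences were compared gene by gene. In WT against EV 18 of 33 genes had the same sign in both assays, 15 lower and 3 higher in both, and 11 were lower in mRNA and higher in footprints. The same sign in both was held by 54.5% of members and by 48.8% of 10335 genes. In MT against EV the share was 51.5% against 48.9%, and in WT against MT it was 46.9% against 47.1%.

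Translational efficiency, taken as the footprint difference minus the mRNA difference, had a median of 0.18 over 33 genes in WT against EV (0.04 over all 10335 genes), with 23 of 33 above 0 and 53.7% of all genes above 0. HSD17B7 and ACACB passed 2-fold there (4.21% of all). At the 25% step 9 were higher, SCD, ACACA, FDPS, IDI1, FADS1, STARD4, SREBF2, SREBF1 and ACACB (22.5% of all), and SCAP, MVK, NSDHL and HSD17B7 lower (18.4% of all). SCD stood at 0.65, ACACA at 0.64, FDPS at 0.60 and IDI1 at 0.55, and SCAP at -0.79 and MVK at -0.80. In MT against EV the median was -0.01 (0.02 over all 10331 genes) with 16 of 33 above 0 (52.0% of all). No member passed 2-fold (3.51% of all). At the 25% step 4 were higher, SREBF1, MVD, SCD and ACACB (19.6% of all), and 3 lower, HSD17B7, NSDHL and ACLY (15.1% of all). In WT against MT the median was 0.17 (0.01 over all 10352 genes) with 21 of 32 above 0 (50.8% of all). No member passed 2-fold (4.82% of all), 10 were higher past the 25% step (20.7% of all) and 4 lower (20.3% of all). If the Ribo-seq labels WT and MT were swapped, the median would be 0.10 in WT over EV, 0.07 in MT over EV, with the sign turned, and 0.0076 in WT over MT. These values combine 4 libraries each and assume that the labels pair the same cells in both assays.

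The ratio of footprints to mRNA ranged from 0.236 to 5.28 among the members in EV. It had a median of 1.603 over 32 genes at 1 unit in both assays, against 1.10 over 10068 genes, and 22 of the 32 lay above that median of all genes. The highest ratios were those of MSMO1 (5.28), DHCR7 (4.40), FDFT1 (4.17), EBP (3.82) and PMVK (3.80). The lowest were those of SREBF2 (0.236) and HSD17B7 (0.241), below the 0.312 that marked the lowest 10% of all genes, followed by SQLE (0.648) and SREBF1 (0.650). MSMO1 and FDFT1 lay above the 3.70 that marked the highest 10%, as did DHCR7, EBP and PMVK. HSD17B7 had footprints below 1 TPM in WT and MT (0.103 and 0.593 TPM), so it was left out of the ratios there. Among the 31 members kept in WT and the 32 in MT, SREBF2 was the lowest (0.338 and 0.215). MSMO1 (5.85) was the highest in WT and DHCR7 (4.81) in MT. The ratio divides TPM by FPKM, so its absolute size has no meaning.

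**Figure D5:**
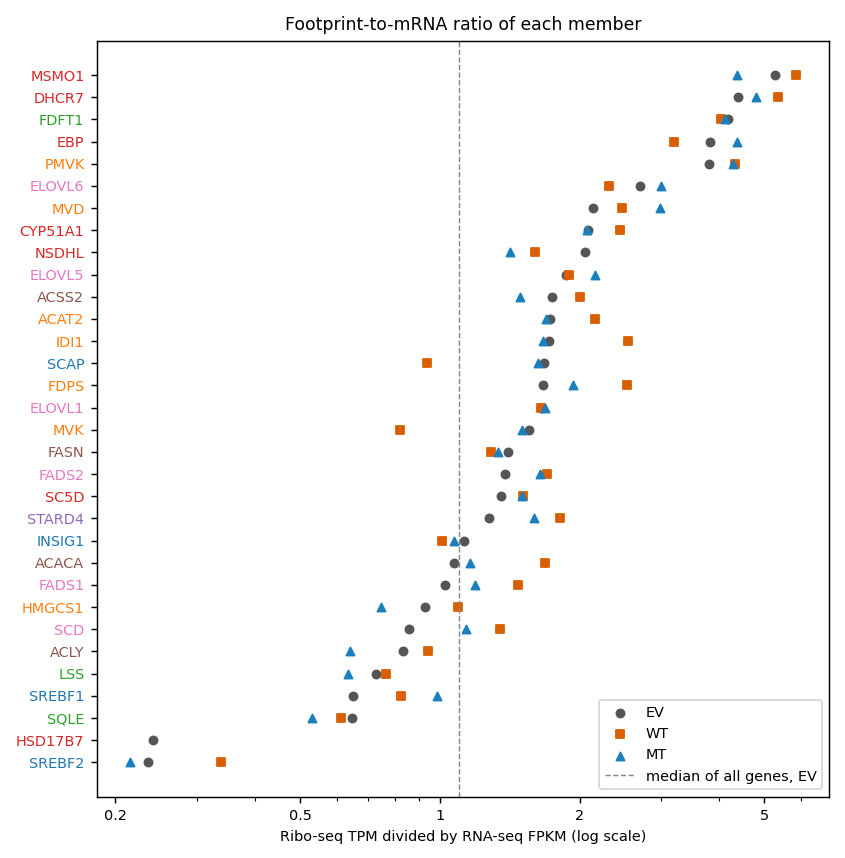
Ribo-seq TPM divided by RNA-seq FPKM (log axis) of 32 genes at 1 unit or more in both assays of EV, sorted by the EV value. Each gene has 1 point per label, except HSD17B7 with a point for EV alone, and the EV median of all genes (1.10) is dashed. SREBF2 is at the bottom in all 3 labels, MSMO1 and DHCR7 are at the top, and the WT points of SCAP and MVK lie left of their EV and MT points.

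Genes next to these in lipid metabolism, 79 in 9 lists, lay on both sides of EV in mRNA. The lists were written from pathway knowledge, with earlier results of these data known. In WT against EV 42 of 72 measured were below 0 (median -0.05), while 48.9% of all genes lay above 0. SMPDL3A, a liver X receptor target, was the 1 of the 72 past 2-fold (0.499% of all genes), at 18.3, 8.64 and 10.7 FPKM. Footprints of SMPDL3A were nearly level, at 9.62, 9.26 and 8.90 TPM. In MT against EV 35 of 72 were below 0 (median 0.02), and in WT against MT 40 of 72 (median -0.04). Above 0 in these comparisons lay 48.7% and 51.0% of all genes. In Ribo-seq the medians were 0.05, 0.02 and 0.02 in the same order. MBTPS1, the site-1 protease that makes the first cut in SREBPs, had mRNA of 39.9, 35.6 and 34.7 FPKM and footprints of 45.3, 83.5 and 100.3 TPM, lowest in EV and past 2-fold in MT. GPAT4, an acyltransferase of triglyceride synthesis, had level mRNA (16.8 to 17.5 FPKM) and low footprints of 1.57, 3.54 and 4.21 TPM. MBTPS1 and GPAT4 were the 2 of 72 past 2-fold in footprints of MT against EV, as were 2.83% of all genes. In the remaining 6 lists no gene passed 2-fold in RNA-seq or Ribo-seq, and their most abundant members in EV were GGPS1 of the isoprenoid branch (31.0, 26.3 and 28.5 FPKM), the lysosomal sterol carrier NPC2 (93.7, 78.0 and 76.1 FPKM), the dehydratase HACD3 (89.2, 92.3 and 97.9 FPKM), IDH1 of NADPH supply (97.7, 73.3 and 84.8 FPKM), ACSL3 (97.495, 87.0 and 83.9 FPKM) and ACSF3 of mitochondrial fatty acid synthesis (8.07, 7.001 and 6.84 FPKM).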

How the data were processed

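One deposited table of 20307 rows gave 1 column per library, matched to samples by column name. The RNA-seq columns have no unit in the file header and were read as FPKM because the deposited columns sum to 459938 to 469859; TPM over a larger gene set would look alike. The deposited Ribo-seq columns are TPM, as each sums to 1000000. Aligner, footprint counting, strand and annotation were not given in the sources used here. Build 18 of the human genome stands in the submitters' processing notes. The coordinates printed are those of promoter stretches alone, on GRCh38.p14, which is a different build from the one in those notes. Per the labels' protocols, cycloheximide (100 µg/ml) was added to the medium before footprinting, which can shift footprints along mRNAs. Read totals are unknown, and genes above 0 in a single library had medians of 0.038 to 0.046 FPKM and 0.118 to 0.148 TPM.

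Rows without a gene name (605) and 7 symbols with several different values were left out. Differences were taken on log2(value + 1), where low genes show smaller changes than their true ratio, with a minimum of 1 unit in either library (in both assays for translational efficiency), with Python 3.11.15 and pandas 2.3.3. With 1 library per label and assay there is no test and no p-value. The 37 genes were all named, with PHYHD1 and, of the other 9 lists, genes past 2-fold or else the most abundant one in EV. Members and lists were chosen with earlier results of these data known. The functions were tested on simulated data with known fold changes. Motif windows came from RefSeq.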

Additional observations from a re-analysis of the deposited data

How the results depend on the processing

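Median differences of the 37 genes kept their sign under all 6 alternatives (pseudocounts of 0.1 and 0.5, no minimum level, a minimum of 10 units, scaling by library medians, and rescaling without mitochondrially encoded genes) except translational efficiency in MT over EV, whose median of -0.01 ranged from -0.07 to 0.11. The value of 0.11 came with the minimum of 10 units. If the Ribo-seq labels WT and MT were swapped, the medians of translational efficiency went from 0.18 to 0.10 in WT over EV, from -0.01 to 0.07 in MT over EV and from 0.17 to 0.0076 in WT over MT. The mRNA medians ranged from -0.15 to -0.09 in WT over EV, from -0.08 to -0.03 in MT over EV and from -0.12 to -0.08 in WT over MT.

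Of 114 recomputed counts of members past a rule of size, 22 moved by more than 1.5 times, 19 of them counts past 2-fold and 3 past the 25% step. Those 3 were footprints in MT over EV, from 3 to 1 at a minimum of 10 units, and translational efficiency with the labels swapped, from 13 to 8 in WT over EV and from 7 to 12 in MT over EV. With a pseudocount of 0.1, counts past 2-fold went from 0 to 2 (WT over EV) and from 0 to 1 (MT over EV) in mRNA, from 1 to 3, 0 to 2 and 0 to 1 in footprints of WT over EV, MT over EV and WT over MT, and from 0 to 2 and 0 to 1 in translational efficiency of MT over EV and WT over MT. With a pseudocount of 0.5 they were 1 in mRNA of MT over EV, 2, 2 and 1 in footprints and 2 in translational efficiency of MT over EV. Rescaling without mitochondrially encoded genes gave 1 in mRNA and 1 in translational efficiency of MT over EV. At a minimum of 10 units the counts of 1 in footprints and 2 in translational efficiency of WT over EV became 0, and with the labels swapped translational efficiency had 1, 2 and 1. With the pseudocount of 0.1 these were low genes: TM7SF2 in mRNA (1.14 in WT, 1.51 in MT over EV), ACACB in mRNA of WT (-1.23), footprints (2.07 and 1.86) and translational efficiency (3.30 and 2.10), and HSD17B7 in footprints (-3.30 and -1.53) and translational efficiency (-3.20 and -1.64), besides MVK footprints. No paired analysis was possible because each label has 1 library per assay. Without replicates or read totals, none of the differences has an error estimate.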
